A study of Caenorhabditis elegans with 11 samples.

Results

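The genes described here encode neuropeptides of Caenorhabditis elegans: 25 flp genes, whose products are FMRFamide-like peptides, and 53 nlp genes, whose products are other neuropeptide-like proteins. They were chosen by name, as probe sets of the array with 1 gene symbol that begins with flp or nlp and a number. The rule left out nlp-27 to nlp-31 and nlp-34, which belong to a cluster of epidermal antimicrobial peptide genes. Each gene is represented by the probe set with the highest mean signal over all arrays, which gave 78 genes of the 17118 with 1 symbol. Of the 78 genes, 69 had 1 probe set and 9 had several, and 21 of the probe sets used end in _s_at or _x_at, which can bind transcripts of related genes.

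Neuropeptides are cut from larger precursor proteins, often amidated at their end, packed into dense-core vesicles and released from neurons and from some intestinal, muscle and epidermal cells. Most act on G protein-coupled receptors and tune locomotion, feeding, egg laying, mating, sleep and fat use over longer times than fast transmitters do. A precursor's RNA level is only one step of this path, since processing and release are regulated as well.

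RNA came from whole hermaphrodites of a single genotype, glp-1(e2141). The allele is temperature sensitive and affects a Notch receptor that germ line stem cells need to divide. Synchronised embryos were obtained at 15 °C, and the larvae then spent 8 days at 25 °C, the temperature at which these mutants are sterile, on 10 cm plates with OP50 bacteria. Plates held 500 hermaphrodites, or 250 hermaphrodites with 250 wild-type males that were taken off on day 8, and RNA was made from 200 hermaphrodites per sample. The number of hermaphrodites per plate thus differed together with the presence of males. Of the 4 groups, those called glp-1 without males and glp-1 with males had no RNAi and 3 arrays each. The third, utx-1 RNAi without males, also had 3, and utx-1 RNAi with males had 2 (replicates 1 and 3), since 1 sample gave too little RNA. The product of utx-1 removes methyl groups from lysine 27 of histone H3. No empty-vector group is named and the delivery of the RNAi is not described, so knockdown of utx-1 and RNAi treatment as such cannot be told apart.

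The knockdown target read lower in all 5 utx-1 RNAi arrays, at 4.41 to 4.999 against 7.03 to 7.14 in the others at one probe set (log2 signal). At the other it read 4.81 to 6.42 without males and 8.40 to 9.06 with males, against 11.54 to 13.09 in the arrays without RNAi. Within the RNAi arrays utx-1 was thus higher with males at both probe sets (0.32, adjusted p = 0.0476, and 3.28, adjusted p = 0.000114, limma). The 2 arrays of utx-1 RNAi with males stood apart. They correlated with the other 9 at 0.961 to 0.983 across probe sets and with each other at 0.995, while the other 9 correlated among themselves at 0.986 to 0.997. All 7 germ line markers and all 5 oocyte and eggshell markers rose in these 2 arrays against both other groups they were compared with. The mean level of the germ line list was 7.44 and 7.42 there and 3.90 to 4.62 in the other 9 arrays, and that of the oocyte list was 8.62 and 8.54 against 2.91 to 3.93. These values go against the label of sterile glp-1(e2141) that both arrays carry, and each comparison with utx-1 RNAi and males rests on them. Body wall muscle markers moved the other way, with a list mean of 6.17 and 6.50 against 6.85 to 7.37. In RNA of whole animals, fewer cells of a type and less RNA per cell cannot be told apart, and the part of these marker changes in the neuropeptide results was not tested.

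Neuropeptide genes gave clear signal in these animals and varied little between groups. Most probe sets of the array varied little as well. From the 5th to the 95th percentile of all probe sets, differences ran from -0.306 to 0.244 for utx-1 RNAi without males. They ran from -0.487 to 0.738 for males under utx-1 RNAi. Of the 78, 65 lay above the median signal of all probe sets and 13 below it, with a median percentile of 80.6. Signal depends on the probes as well as on the RNA, so it ranks probe sets and not genes. The highest mean signals were those of nlp-40, flp-9, flp-6, nlp-47, nlp-80 and flp-1. In the group means nlp-40, an intestinal peptide gene that sets off the expulsion step of defecation, had between 10.75 and 11.18, and flp-1, which acts in locomotion, had 9.12 to 9.19. The lowest were flp-23, nlp-24, nlp-23 and nlp-22, whose arrays all lay between 2.29 and 2.94, where a change in RNA is compressed. Among them nlp-22 encodes sleep-promoting peptides, and nlp-24 encodes opioid-like peptides that sustain feeding in starvation.

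The difference between the highest and the lowest of a gene's 4 group means had a median of 0.27 on the log2 scale and was under 0.5 for 69 of the 78 genes. It was smallest for flp-1, at 0.06, and exceeded 1 for nlp-39 (1.28) and nlp-33 (1.23). The spread between arrays of a group was also small. The pooled SD within groups ran from 0.05 for flp-7 to 0.54 for nlp-39, with a median of 0.12. Across all 5 comparisons 19 genes passed the threshold (adjusted p under 0.05, limma) at least once, with 23 calls in all, and 59 never did. With males without RNAi 5 of the 78 genes passed in either direction, against 2661 of all 22548 probe sets. With males under utx-1 RNAi 7 passed, against 4707. For utx-1 RNAi the counts were 0 against 37 without males and 10 against 3165 with males. For the interaction, defined below, they were 1 against 1725. Counted in both directions together, each of these shares was smaller among the 78 genes than among all probe sets. For utx-1 RNAi with males the shares were close. For utx-1 RNAi without males 0.164% of all probe sets passed, so 0 of 78 genes cannot show a smaller share. By direction the order did not always hold. With utx-1 RNAi and males 10 of 78 genes fell and 0 rose, against 5.07% and 8.96% of all probe sets. In the interaction 1 fell and 0 rose, against 1.23% and 6.42%.

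**Figure D1:**
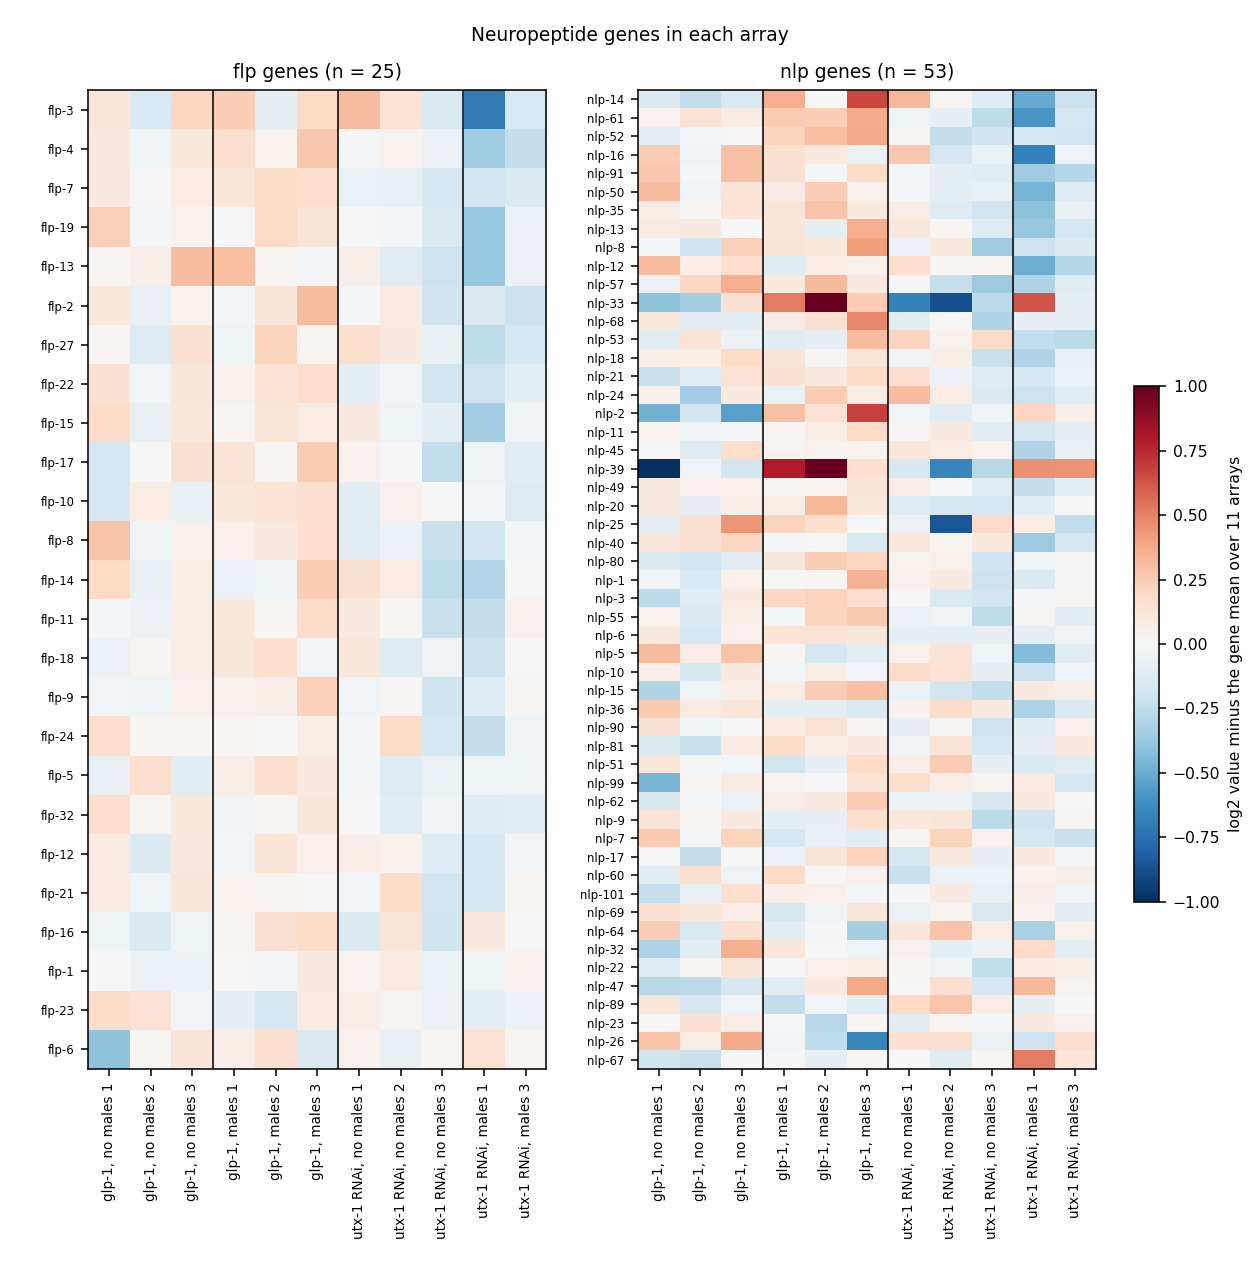
Heat map of the 25 flp genes (left) and 53 nlp genes (right) in the 11 arrays. Colour gives the log2 value minus the gene's mean over the arrays, with the colour scale ending at -1 and 1; lines separate the groups, and genes are ordered by their difference between utx-1 RNAi and no RNAi with males. Red cells gather in glp-1 with males and blue cells in the replicate 1 array with utx-1 RNAi and males, and nlp-33 and nlp-39 vary the most.

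Group means were ordered alike for many of the genes. The highest mean was found in glp-1 with males for 45 of 78 genes (57.7%, against 27.8% of all probe sets), and this group kept the most, 39 to 41, when arrays were centred on their median, quantile normalised once more or centred on pan-neuronal genes. The lowest mean was found in utx-1 RNAi with males for 45 genes as well (57.7%, against 40.6% of all probe sets), for 59 and 49 under the median and quantile scalings, but for 16 when arrays were centred on 12 pan-neuronal genes. Among the 25 flp genes, 18 were highest in glp-1 with males and 19 lowest in utx-1 RNAi with males on the deposited values.

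The next comparison asks what males change in hermaphrodites without RNAi (3 arrays against 3). Of the 78 neuropeptide genes 4 rose (nlp-2, nlp-39, nlp-80 and nlp-52) and 1 fell (nlp-26), where 5.65% of all probe sets rose and 6.15% fell. The largest rise was that of nlp-39, at 2.44-fold, and no flp gene passed the threshold. Of the markers of other tissues, 1 of 4 epidermal genes fell (the cuticle collagen gene col-19, by 1.24, adjusted p = 0.000359), as did 1 of 4 intestinal genes (the esterase gene ges-1, by 0.86, adjusted p = 0.0175). Of 7 germ line genes iff-1 rose by 1.92 (adjusted p = 0.0162) and glh-1 by 0.30 (adjusted p = 0.0395), and htp-3 fell by 0.34 (adjusted p = 0.0266, limma). The part of these changes in the neuropeptide results was not tested. Array values are given below in the order of the replicate numbers, and ± marks a standard error from the model.

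The gene nlp-2, which encodes RPamide peptides that promote wakefulness, read 4.86, 5.14 and 4.79 without males and 5.62, 5.47 and 6.01 with males. Every array with males was above every array without, and nlp-2 rose by 0.77 ± 0.13 on the log2 scale, or 1.71-fold (adjusted p = 0.00412, limma). For nlp-39 the values were 4.76, 6.33 and 6.18 without males and 7.16, 7.43 and 6.53 with males. The groups were separate but wide, since replicate 1 without males lay far below the others of its group, and nlp-39 rose by 1.28 ± 0.35 (adjusted p = 0.0332, limma). The gene nlp-80 moved from 9.18, 9.13 and 9.22 to 9.43, 9.57 and 9.53, a small rise of 0.34 ± 0.08 with a tight spread (adjusted p = 0.0202, limma). A rise of the same size was seen for nlp-52, from 4.31, 4.37 and 4.39 to 4.62, 4.70 and 4.78 (0.34 ± 0.08, adjusted p = 0.0204, limma). The gene that fell, nlp-26, read 4.19, 3.98 and 4.28 without males and 3.88, 3.65 and 3.25 with males, a fall of 0.56 ± 0.15 (adjusted p = 0.0353, limma) that left 67.9% of the signal. Its signal lay at percentile 50.4 of all probe sets, and replicate 3 with males was the lowest array.

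Several genes came close to the threshold. The gene nlp-33, related to the antimicrobial peptide genes of the epidermis, differed by 0.82 ± 0.25 (adjusted p = 0.0505, limma). For nlp-36 the difference was -0.26 (adjusted p = 0.0506), for the orcokinin-like gene nlp-14 it was 0.52 (adjusted p = 0.054), and for its relative nlp-15 it was 0.31 (adjusted p = 0.069). In all 4 genes the arrays with males and without were separate. Over all 78 genes 15 were separate and higher with males (14.4% of all probe sets were) and 6 separate and lower (16.9% of all probe sets). The median difference was 0.07 against -0.01 for all probe sets, and it stayed above 0 under the median, quantile and pan-neuronal scalings. The 95% interval lay within 0.5 of 0 for 64 genes, among them all 25 flp genes, whose differences ran from -0.16 to 0.20.

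Most of these calls rested in part on single arrays, whereas nlp-2 kept its call in every alternative run (highest adjusted p 0.0192, limma). Of the 5 calls 1 was left when replicate 1 was dropped from glp-1 without males, and 2 or 3 genes passed when replicate 2 or 3 was dropped from glp-1 with males. Without the 2 arrays of utx-1 RNAi with males, or without either of them, 8 genes passed: nlp-33 joined the rises, nlp-36 and nlp-5 joined the falls, and all 5 calls were kept.

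**Figure D2:**
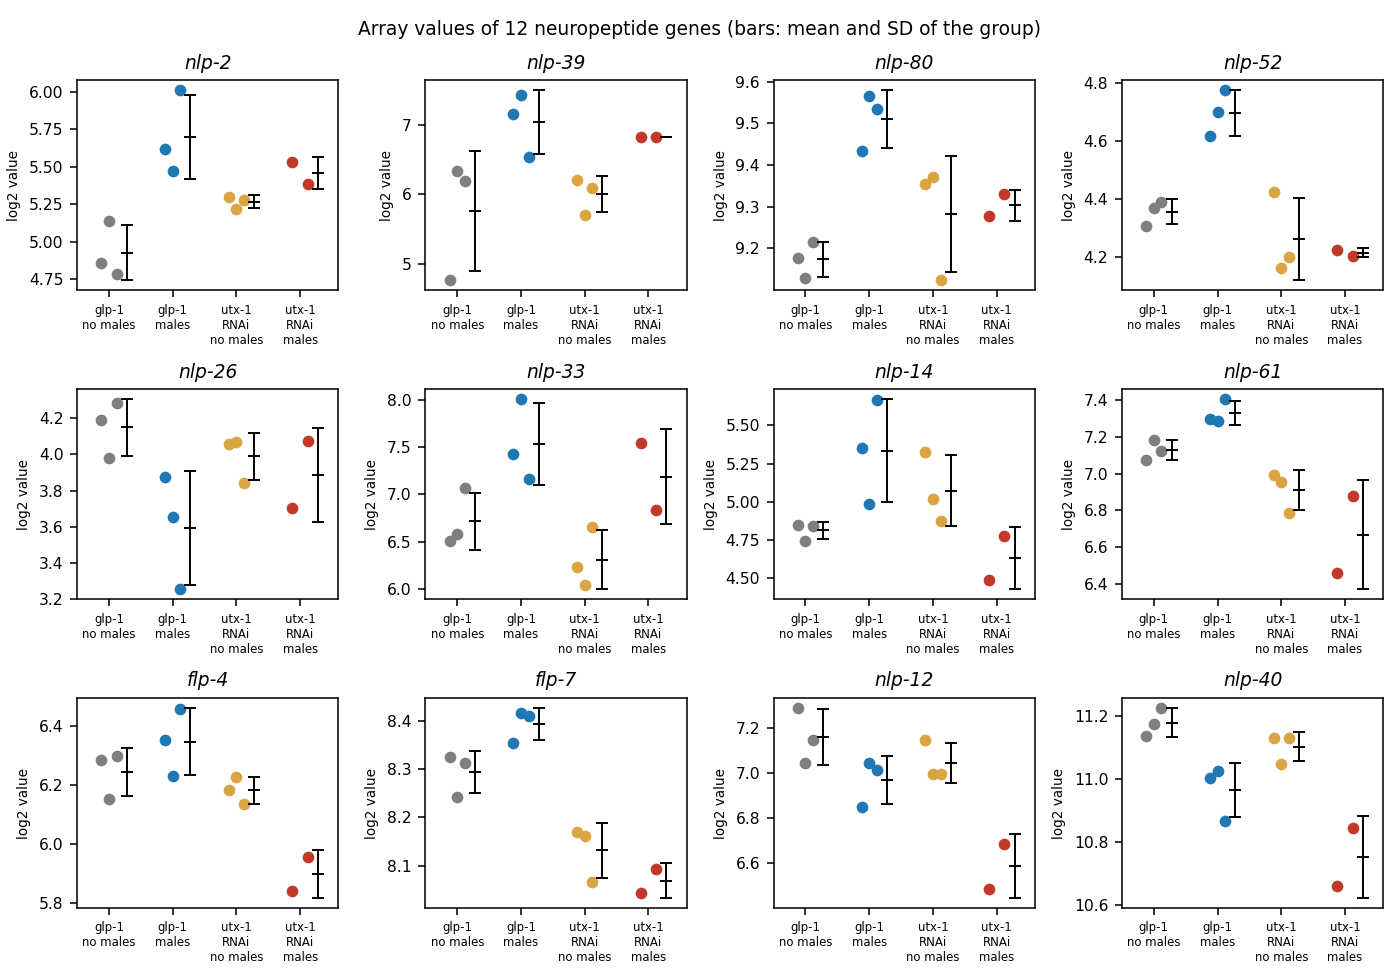
Log2 values of 12 neuropeptide genes in the 11 arrays. Each point is 1 array, the bar beside it gives the mean and SD of the group (n = 3, and n = 2 for utx-1 RNAi with males), and each panel has its own vertical scale that does not start at 0. The panels show the rise of nlp-2, nlp-39, nlp-80 and nlp-52 with males without RNAi and the low values of nlp-61, flp-4, nlp-12 and nlp-40 in utx-1 RNAi with males.

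Under utx-1 RNAi the same question was asked of 2 arrays with males against 3 without. Here 2 neuropeptide genes rose (nlp-33 and nlp-67) and 5 fell (nlp-12, nlp-40, nlp-36, flp-4 and nlp-53), against 11.8% and 9.03% of all probe sets. The probe sets of nlp-33, nlp-12, nlp-40 and nlp-36 end in _s_at or _x_at. All germ line and oocyte markers rose in this comparison, with list medians of 3.49 and 5.01, 4 of 5 muscle markers fell, and so did 2 of 4 epidermal markers, col-19 (by 1.09, adjusted p = 0.000129) and elt-3 (by 0.72, adjusted p = 0.0166, limma). The pan-neuronal list had a median of -0.22, with 1 of 12 genes called (unc-10, a fall).

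A larger negative difference that did not pass was that of flp-3, with separate groups (-0.53, adjusted p = 0.0546, limma). The deepest fall past the threshold was that of nlp-12, a cholecystokinin-like gene of the DVA neuron that has ckr-2 among its receptor genes. It read 7.149, 6.996 and 6.996 without males and 6.486 and 6.687 with males, and fell by 0.46 ± 0.10 (adjusted p = 0.0076, limma). The receptor gene ckr-2 fell by 0.45 (adjusted p = 0.0341, limma). It was among the 9 receptor genes of 99 that fell in this comparison, against 9.03% of all probe sets. The intestinal gene nlp-40 fell by 0.35 ± 0.09 (adjusted p = 0.0121, limma), from 11.13, 11.05 and 11.13 to 10.66 and 10.84. The convertase gene aex-5, which acts in the same defecation pathway, fell by 0.42 (adjusted p = 0.0228). In the animals without RNAi nlp-40 differed by -0.21 with males (adjusted p = 0.0965) and aex-5 fell by 0.41 (adjusted p = 0.0246). In both backgrounds every array of nlp-40 with males lay below every array without. Of 4 intestinal markers ges-1 fell in both backgrounds, with -0.86 (adjusted p = 0.0175) without RNAi and -1.25 (adjusted p = 0.00197) under utx-1 RNAi, and vit-2, vit-6 and elt-2 did not pass. The part of the intestine in the values of nlp-40 was not tested.

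Like nlp-40, nlp-36 read lower with males in both backgrounds, at 8.22 and 8.39 against 8.57, 8.72 and 8.62 under utx-1 RNAi (-0.33 ± 0.09, adjusted p = 0.0175, limma). The gene flp-4 had 5.84 and 5.96 with males and 6.18, 6.23 and 6.14 without, a fall of 0.29 ± 0.09 (adjusted p = 0.041, limma). The dim gene nlp-53 fell by 0.41 ± 0.13 (adjusted p = 0.0411, limma). In each of these genes both arrays with males were below all 3 without.

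The rise of nlp-33 under utx-1 RNAi was 0.88 ± 0.27 (adjusted p = 0.0396, limma), from 6.24, 6.04 and 6.65 to 7.54 and 6.83, close to its difference of 0.82 without RNAi. The gene nlp-39 read 6.82 in both arrays with males against 6.20, 5.70 and 6.09, a separate difference that did not pass the threshold. The other call, nlp-67, rested on signals of 2.86 to 3.49 and was led by replicate 1 with males.

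When replicate 1 was dropped from utx-1 RNAi with males 0 of the 7 calls remained, and their limma adjusted p-values ran from 0.119 for nlp-12 to 0.521 for nlp-67. That leaves 1 array in the group, which the model takes to vary like the other groups, here and wherever 1 of its 2 arrays is dropped. All 7 values kept their direction, among them nlp-12 (-0.36), nlp-40 (-0.26) and nlp-33 (0.53). When replicate 3 was dropped instead, 2 genes rose and 8 fell. There were 3 calls when replicate 1 or replicate 2 was dropped from utx-1 RNAi without males, and 4 when replicate 1 was dropped from glp-1 with males. The direction of the list also hung on the scaling, since its median was -0.07 on the deposited values, -0.20 and -0.12 after median and quantile scaling, and 0.07 after centring on pan-neuronal genes. The calls were 2 rises and 5 falls on the deposited values. They were 0 rises and 23 falls after median centring (8.92% and 24.6% of all probe sets), 1 and 12 after quantile normalisation (10.7% and 14.4%), and 3 and 0 after centring on pan-neuronal genes (18.1% and 4.39%). Of all genes 10 were separate and higher (22.1% of all probe sets) and 19 separate and lower (25.6% of all probe sets).

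The comparisons of males with no males in the 2 backgrounds share no arrays. Across the 78 genes their differences correlated at r = 0.64, which fell to 0.39 without nlp-33 and nlp-39. Across all probe sets r was 0.39 as well. Of the 78 genes 46 (59%) had the same sign, against 61.5% of all probe sets. Among the 25 flp genes r was 0.24 and 11 had the same sign. These are descriptions across genes, which are not independent replicates.

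**Figure D3:**
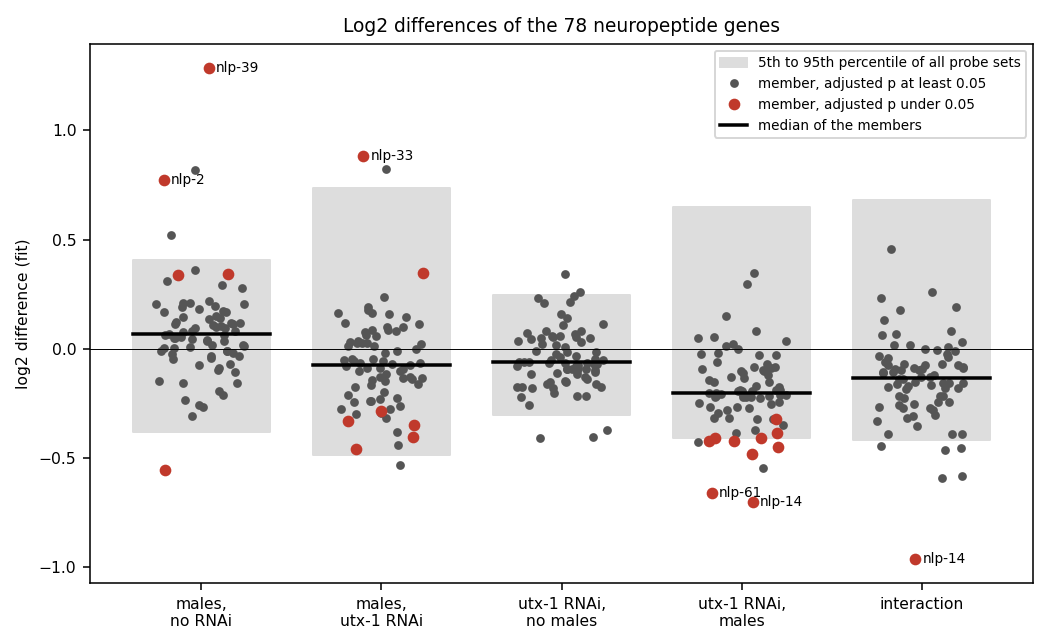
Log2 differences of the 78 neuropeptide genes in the 5 comparisons (vertical axis, from the fit). Points are genes, red where the adjusted p was under 0.05, thick lines are the members' medians and grey boxes span the 5th to 95th percentile of all probe sets; points are spread sideways at random. The members' medians were 0.07, -0.07, -0.06, -0.20 and -0.13 from left to right on the deposited values, and centring on pan-neuronal genes turned the second to 0.07.

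In animals kept without males, a difference between utx-1 RNAi and no RNAi (3 arrays against 3) was not detectable for any neuropeptide gene. By limma, 0 of 78 passed the threshold, where 0.164% of all probe sets did, and 7 had an unadjusted p under 0.05. Of these 2 were higher (6.05% of all probe sets) and 5 lower (10.9%). The count was also 0 in every alternative run. The smallest p-values belonged to nlp-57 (-0.37, adjusted p = 0.166), nlp-91 (-0.26, adjusted p = 0.2), nlp-2 (0.34, adjusted p = 0.225) and flp-7 (-0.16, adjusted p = 0.25). Of these, nlp-2 had no overlap, with 5.30, 5.22 and 5.28 under RNAi, above all of its control arrays, and flp-7 had none either, with 8.17, 8.16 and 8.07 against 8.32, 8.24 and 8.31. Over all 78 genes 2 were separate and higher (7.55% of all probe sets were) and 9 separate and lower (14.6% of all probe sets). The 95% interval of the difference lay within 1 of 0 for all 78 genes and within 0.5 for 70.

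With males present, utx-1 RNAi (2 arrays against 3 without RNAi) went with lower neuropeptide values. There were 10 falls and 0 rises among the 78 genes, against 5.07% of all probe sets that fell and 8.96% that rose. In 42 genes both RNAi arrays lay below all 3 others (27.6% of all probe sets did), and in 2 above (17.6% of all probe sets). The differences were small: the median was -0.20, against -0.06 for all probe sets, and 69 genes were below 0. Of the 10 genes flp-4 and flp-7 are flp genes, and nlp-61, nlp-52, nlp-91, nlp-14, nlp-12, nlp-35, nlp-50 and nlp-13 are nlp genes. The probe sets of nlp-61, nlp-14, nlp-12 and nlp-50 end in _s_at or _x_at.

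The lowest p was that of nlp-61, whose only probe set ends in _x_at and can bind transcripts of related genes. It read 6.46 and 6.88 with RNAi and 7.30, 7.28 and 7.41 without. It fell by 0.66 ± 0.12 (adjusted p = 0.00209, limma), which left 63.2% of the signal, and it kept its call in all 19 alternatives in which it was measured. For nlp-52, one of the genes that rose with males without RNAi, the arrays with RNAi read 4.22 and 4.20 against 4.62, 4.70 and 4.78. It fell by 0.48 ± 0.09 (adjusted p = 0.00378, limma), so that its values with males and RNAi lay just below those without males and without RNAi, at 4.31 to 4.39.

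The gene flp-4 read 5.84 and 5.96 against 6.35, 6.23 and 6.46, and fell by 0.45 ± 0.09 (adjusted p = 0.00499, limma). For flp-7, whose peptides signal fat loss in the intestine, the arrays were 8.04 and 8.09 against 8.35, 8.42 and 8.41. The fall of 0.32 ± 0.07 (adjusted p = 0.0118, limma) was the smallest of the 10 and had the tightest groups. The cholecystokinin-like gene nlp-12 fell by 0.38 ± 0.10 (adjusted p = 0.0275, limma), with 6.49 and 6.69 against 6.85, 7.05 and 7.01. The largest fall was that of the orcokinin-like gene nlp-14, by 0.70 ± 0.18 (adjusted p = 0.0206, limma), with 4.49 and 4.78 against 5.35, 4.99 and 5.66.

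The remaining falls were those of nlp-91 (0.42, adjusted p = 0.0177), nlp-50 (0.42, adjusted p = 0.0364), nlp-35 (0.41, adjusted p = 0.0321) and nlp-13 (0.41, adjusted p = 0.0485). In these genes both arrays with RNAi lay below all 3 without. Within the pair with RNAi, replicate 1 was the lower in every one of the 10 genes except nlp-52.

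The number of falls moved with the array dropped and with the scaling. Without replicate 1 among the arrays with utx-1 RNAi and males, which leaves 1 array there, 2 calls were left, nlp-52 (adjusted p = 0.0324) and nlp-61 (adjusted p = 0.0355), and the highest adjusted p of the others was 0.376, for nlp-50. All 10 values stayed below 0, among them flp-4 (-0.39), flp-7 (-0.30) and nlp-14 (-0.56). When replicate 3 was dropped instead, 13 genes fell and 1 rose. There were 6 falls when replicate 1 or replicate 3 was dropped from glp-1 with males. After median centring there were 0 rises and 29 falls (8.08% and 14.1% of all probe sets), and after quantile normalisation 1 rise and 17 falls (8.62% and 8.72%). After centring on pan-neuronal genes 2 genes rose (nlp-26 and nlp-67) and 3 fell (flp-4, nlp-14 and nlp-61), against 13.7% and 1.26% of all probe sets. The members' medians were -0.27, -0.20 and -0.05 in that order. Pan-neuronal genes themselves had a median of -0.21 here, with 1 of 12 called (rab-3, -0.28), and the germ line and oocyte markers rose by a median of 3.18 and 4.75.

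The interaction, which is the difference with males under RNAi minus that without RNAi, passed the threshold for 1 neuropeptide gene, nlp-14. For all probe sets the share was 1.23% for falls and 6.42% for rises. With males, nlp-14 moved from 4.85, 4.75 and 4.84 to 5.35, 4.99 and 5.66 without RNAi, and from 5.33, 5.02 and 4.87 to 4.49 and 4.78 under utx-1 RNAi. The groups were separate in both backgrounds and in opposite directions, although neither difference passed by itself (0.52, adjusted p = 0.054, and -0.44, adjusted p = 0.104, limma). The difference between them was -0.96 ± 0.24 (adjusted p = 0.0282, limma), and its 95% interval ran from -1.48 to -0.44. The call was lost when any of 5 arrays was left out, at adjusted p-values of 0.0506 and 0.0695 for replicates 3 and 2 in glp-1 without males, 0.0582 for replicate 1 in glp-1 with males, 0.0675 for replicate 1 in utx-1 RNAi without males, and 0.138 for replicate 1 in utx-1 RNAi with males. The value lay between -1.14 and -0.80 with each array left out in turn. The probe set of nlp-14 ends in _s_at. Orcokinin-like peptides of nlp-14 and nlp-15 are known to promote sleep, and nlp-15 itself had an interaction of -0.07 (adjusted p = 0.856), with a 95% interval from -0.40 to 0.26.

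The next smallest p-values were those of flp-4 (-0.39, adjusted p = 0.0784), nlp-52 (-0.39, adjusted p = 0.0867) and nlp-2 (-0.58, adjusted p = 0.11). The rise of nlp-2 with males was thus 0.77 without RNAi and 0.19 under utx-1 RNAi, a difference that did not pass. The members' median was -0.13, against -0.03 for all probe sets, and it was below 0 under the median, quantile and pan-neuronal scalings as well, with 7, 4 and 1 falls (5.26%, 3.25% and 0.506% of all probe sets).

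Of the genes named for roles in egg laying or mating, nlp-3, nlp-7, flp-10, flp-17, flp-8 and flp-12 did not pass in any of the 5 comparisons at the probe set used. The gene nlp-3, whose peptides stimulate egg laying from the HSN neurons, read 7.87, 8.03 and 8.22 without males and 8.35, 8.37 and 8.30 with males, separate groups with a difference of 0.29 (adjusted p = 0.06, limma). The gene nlp-7, whose peptides slow egg laying, read 8.45, 8.16 and 8.41 without males and 8.02, 8.12 and 8.08 with males, a difference of -0.27 (adjusted p = 0.0785, limma). Under utx-1 RNAi nlp-7 was lower with males again, by a difference of -0.30 (adjusted p = 0.0548). The egg-laying inhibitors flp-10 and flp-17, ligands of the receptor EGL-6, differed by 0.19 (adjusted p = 0.157) and 0.14 (adjusted p = 0.436) with males without RNAi. The receptor gene egl-6 rose by 0.39 (adjusted p = 0.0362). The genes flp-8 and flp-12, which with flp-10 are known for their part in the turning of mating males, differed by 0.01 and 0.03.

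Of the genes named for sleep or arousal, nlp-2 and nlp-14 passed at least once. At the probe set used flp-11, the sleep gene of the RIS neuron, with group means of 7.58 to 7.78, did not. Nor did flp-13, nlp-8 and flp-24 of the ALA neuron, the arousal gene flp-2, nlp-15 and nlp-22. Of these flp-2 (-0.32, adjusted p = 0.0806), nlp-8 (-0.39, adjusted p = 0.114), flp-13 (-0.32, adjusted p = 0.139) and flp-24 (-0.17, adjusted p = 0.347) had separate, lower arrays under utx-1 RNAi with males. So did 42 of the 78 genes and 27.6% of all probe sets. The other probe set of flp-2 passed in that comparison (-0.32, adjusted p = 0.0473, limma). The receptor genes of flp-13 peptides, frpr-4 and dmsr-1, fell by 0.30 and 0.33 in that comparison (adjusted p = 0.04 and 0.0235, limma). Of 99 receptor genes 6 fell there, against 5.07% of all probe sets. A fall of frpr-4 was also found with males without RNAi (by 0.40) and with utx-1 RNAi without males (by 0.47). The NPR-1 ligand genes flp-18 and flp-21 and the adipokinetic hormone-like gene nlp-47 also passed in no comparison. For nlp-47 the difference with males without RNAi was 0.36 (adjusted p = 0.0922), with separate groups.

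The machinery that makes and reads neuropeptides was followed in 23 genes of processing and dense-core vesicles and 99 receptor genes. With males without RNAi 1 processing gene fell (aex-5), 3 receptor genes rose and 2 fell, where 5.65% of all probe sets rose and 6.15% fell. The rises were those of npr-43 (0.94, adjusted p = 0.00997), trhr-1, the thyrotropin-releasing hormone receptor (0.89, adjusted p = 0.00845), and egl-6, and the falls those of frpr-4 (0.40) and frpr-21 (0.36). Under utx-1 RNAi males went with rises of the same npr-43 (0.79) and trhr-1 (0.69), and with 9 receptor falls, the deepest that of npr-42 (0.64, adjusted p = 0.00176). The 9 falls of 99 lie at the background of 9.03% of all probe sets, and the 2 rises below that of 11.8%. Among processing genes kpc-1, a furin-like convertase, rose by 0.50 and 5 fell, among them the amidation enzyme gene pghm-1 (0.38) and aex-5.

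Of the receptors only frpr-4 fell with utx-1 RNAi without males (by 0.47, adjusted p = 0.0437). With males 6 of 99 receptor genes fell and 0 rose, led by npr-24 (0.53) and npr-12 (0.47), and 1 of 23 processing genes fell, the carboxypeptidase gene cpd-2 (0.36). These counts of falls lie near the background, since 5.07% of all probe sets fell. In the interaction npr-24 (-0.52) and npr-12 (-0.50) passed. The median of the processing genes in that comparison of utx-1 RNAi with males was -0.22 and that of the receptors -0.14, beside -0.20 for the 78 peptide genes. Of the other neuropeptide genes measured (capa-1, lury-1, pdf-1, pdf-2 and snet-1) 0 of 5 passed in any of the 5 comparisons, at a limma adjusted p under 0.05.

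**Figure D4:**
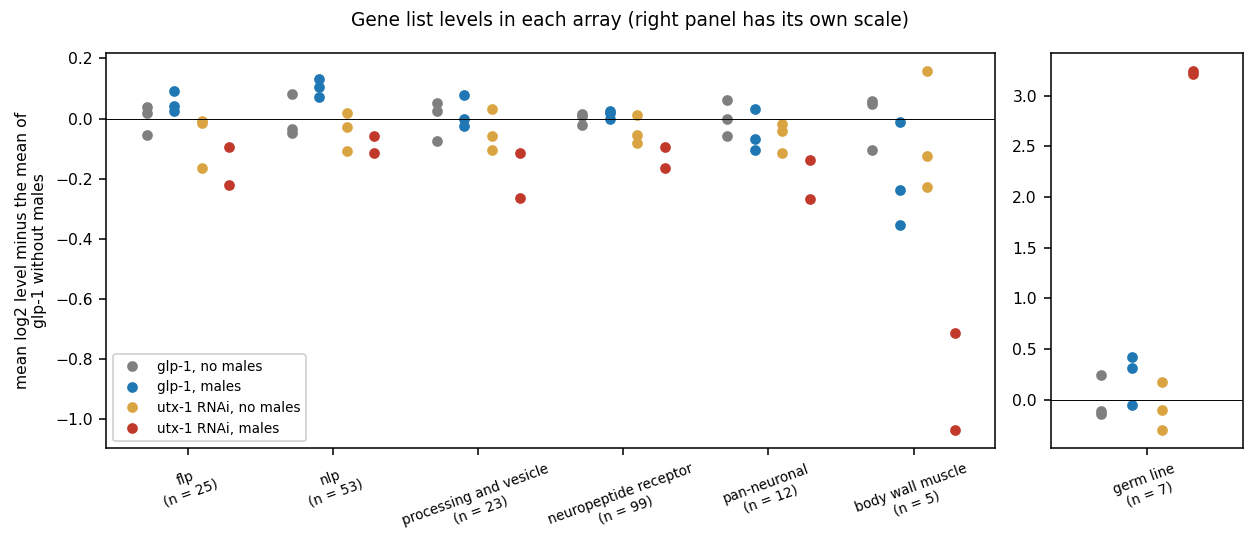
Mean log2 level of gene lists in each array, minus the mean of glp-1 without males. Each point is 1 array and n is the number of genes; the germ line list has its own vertical scale on the right. On the deposited values the 2 arrays of utx-1 RNAi with males lie below all others for processing, receptor, neuronal and muscle genes. They lie above all others for germ line genes. For flp and nlp genes replicate 1 is the lowest array, while replicate 3 lies above replicate 3 of utx-1 RNAi without males.

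The mean of the 78 genes in an array showed the same order at a small scale. It was 6.60, 6.56 and 6.68 in glp-1 without males and 6.67, 6.70 and 6.73 with males, which overlap. Under utx-1 RNAi it was 6.62, 6.59 and 6.49 without males and 6.46 and 6.54 with males, which overlap as well. The pan-neuronal mean was 6.74, 6.68 and 6.80, then 6.77, 6.64 and 6.67, then 6.72, 6.70 and 6.63, and 6.47 and 6.60 in the same order of groups. Relative to it the peptide genes lay at -0.14 to -0.12 in glp-1 without males and at -0.10, 0.06 and 0.06 with males, and at -0.14 to -0.10 and at -0.01 and -0.06 under utx-1 RNAi. Sperm and seminal fluid genes, of which 0 of 25 were called with males without RNAi, had list means of 4.16 to 4.78 in 10 arrays and 5.22 in replicate 2 of glp-1 with males. In utx-1 RNAi with males against no RNAi 9 of the 25 fell, with a list median of -0.67, and without males try-5, a seminal fluid protease gene, fell by 1.21 (adjusted p = 0.0308, limma). The part of these genes in the neuropeptide results was not tested.

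For the 9 genes with several probe sets, the probe set with lower signal was not always on the same side of the threshold as the one used. In utx-1 RNAi with males against no RNAi the other probe set passed for flp-2 (-0.32, adjusted p = 0.0473), flp-8 (-0.52, adjusted p = 0.0405), flp-15 (-0.30, adjusted p = 0.0332), nlp-16 (-0.74, adjusted p = 0.0309) and nlp-99 (-0.35, adjusted p = 0.0143), where the one used did not. With males under utx-1 RNAi the other probe set passed for nlp-16 (-0.74, adjusted p = 0.0219) and flp-15 (-0.26, adjusted p = 0.0499, limma). For nlp-16 that was a deeper fall than any at a probe set used. The probe set used for nlp-99 had -0.10 in utx-1 RNAi with males, while the other read 5.86 and 5.96 with RNAi and 6.27, 6.28 and 6.24 without, and had also risen with males without RNAi (0.31, adjusted p = 0.0197, limma).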

How the data were processed

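Each sample was hybridised to its own Affymetrix C. elegans genome array. Per the submitters' processing notes, the log2 values that the authors deposited come from RMA, with version, settings and joint or separate handling of arrays not given in the sources used here. Values ran from 1.83 to 13.69, with array medians of 3.78 to 3.98. RMA compresses changes of dim probe sets, and the small number of arrays limits the precision.

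Without 77 control probe sets, 22548 of 22625 remained. By the platform annotation 20766 of these had 1 symbol, 887 had several and 895 were unlisted; 20701 symbols were updated through RefSeq's WBcel235 gene table, used for names only. All 11 arrays entered 1 model of group means in limma 3.58.1 (R 4.3.3), with 7 residual and 4.84 prior degrees of freedom. Benjamini-Hochberg adjustment covered all tested probe sets of a comparison, and rose and fell are used at an adjusted p under 0.05. Intervals are 95% intervals from the model.

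Named genes are those past the threshold, the 4 smallest p-values where fewer passed, the 6 highest and 4 lowest signals, and genes with known roles in egg laying, mating, sleep, feeding or fat, with up to 4 genes of each other list by smallest p. The genes nlp-5, nlp-15, nlp-16, nlp-99, flp-3, flp-15 and flp-24 were named after their values were seen. The genes, lists and rules were chosen with earlier results of these data known. Per the labels' design text, the replicates are RNA of independent experiments. For 2 utx-1 RNAi arrays the description and the title give different replicate numbers; titles were used. The procedure was tested on simulated data.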

Additional observations from a re-analysis of the deposited data

Results flagged for a closer look

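The effect of males on nlp-14 differed between the animals with utx-1 RNAi and those without by -0.96 ± 0.24 on the log2 scale (adjusted p = 0.0282, limma, over all probe sets), a test of the difference itself. This 1 fall among the 78 genes lies near the 1.23% of all probe sets that fell in the interaction. All 3 arrays with males lay above all 3 without in the absence of RNAi, and both lay below all 3 under utx-1 RNAi. Of all probe sets 14.4% were separate and higher in the first case and 25.6% separate and lower in the second. The share with both was not counted. The call was lost when any of 5 arrays was left out, with the highest adjusted p, 0.138, in the absence of the array labelled replicate 1 with utx-1 RNAi and males. Groups of 2 or 3 arrays are too small for a test of single outlying arrays.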

How the results depend on the processing

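In animals without males, utx-1 RNAi gave 0 called neuropeptide genes in all alternatives. Of the 23 called values, 453 recalculated values kept their direction: 332 stayed past the threshold and 121 did not. With males without RNAi, where 5 genes passed, the count was 8 after median centring, quantile normalisation or centring on pan-neuronal genes. Removal of the 2 arrays of utx-1 RNAi with males also gave 8. The count was 10 within the brighter part of the probe sets, and 1 to 7 with 1 array left out of a group of 3. Of all probe sets 5.66% rose and 7.21% fell there after median centring, and 6.08% and 6.89% after quantile normalisation. After centring on pan-neuronal genes 6.36% rose and 4.36% fell. With males under utx-1 RNAi, where 7 passed, the 3 scalings gave 23, 13 and 3, probe sets not ending in _s_at or _x_at gave 3, and leaving out single arrays gave 0 to 10. With utx-1 RNAi and males, where 10 passed, the scalings gave 29, 18 and 5, the probe set filter 6, a fit of the 2 groups alone 5, and leaving out single arrays 2 to 14. For the interaction, where 1 passed, the median and quantile scalings gave 7 and 4, the probe set filter, which removes nlp-14, gave 0, and leaving out single arrays gave 0 to 3. Leaving out either array of utx-1 RNAi with males leaves 1, which is assumed to vary like the other groups. Apart from the filter, the cause was not tested.

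Over all probe sets, the 2661 changed with males without RNAi became 1362 to 2732 with single arrays left out, and the 4707 under utx-1 RNAi became 2028 to 4867, or 7565 after median centring. The 3165 with utx-1 RNAi and males became 1476 to 3218, or 5012 after median centring. The 37 with utx-1 RNAi without males became 96 with a trended prior, 64 and 93 after median and quantile scaling, 58 in the brighter part, 18 in a fit of 2 groups and 5 to 59 with single arrays left out. The 1725 of the interaction became 1100 in the brighter part and 1137 to 1706 with single arrays left out. The share of calls that were higher moved from 56.7% to 26.6%, 42.7% and 80.5% for males under utx-1 RNAi under the 3 scalings, from 63.9% to 36.4%, 49.7% and 91.6% for utx-1 RNAi with males, from 83.9% to 50.4% and 63.9% for the interaction under the median and quantile scalings, from 21.6% to 56.2%, 46.2% and 51.3% for utx-1 RNAi without males, and from 47.9% to 59.3% for males without RNAi after centring on pan-neuronal genes. The median of all probe sets shifted by over 0.1 after median centring (-0.12 for males under utx-1 RNAi, -0.11 for the interaction) and after centring on pan-neuronal genes (0.14 for males under utx-1 RNAi and 0.16 for utx-1 RNAi with males).

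Same-numbered samples did not deviate together (correlations of -0.35 to 0.05), so no pairing by the numbers in the titles was seen. For 2 utx-1 RNAi arrays the description gives another number, and pairing under another numbering was not tested. With the replicate number as a block 1, 2, 5 and 1 neuropeptide genes passed for males without RNAi, males under utx-1 RNAi, RNAi in the presence of males and the interaction, 0 for RNAi without males, and 1552 probe sets in all for males without RNAi and 6 for utx-1 RNAi without males. A probe set at low signal can hide a change, and groups of 2 or 3 arrays limit the precision.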
